A study of Drosophila melanogaster with 10 samples.

Results

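The binding sites of 2 proteins of the gypsy insulator complex, Mod(mdg4)2.2 and Su(Hw), were compared in Kc167 cells, a Drosophila melanogaster line derived from embryos. The members are all 2678 peaks of the Mod(mdg4)2.2 list and all 2369 peaks of the Su(Hw) list, that is 5047 of the 9570 peaks in the 5 lists of the study. A peak was counted as shared when it overlapped a peak of the other list by 1 bp or more, and as unshared otherwise. The lists came from chromatin immunoprecipitation followed by sequencing (ChIP-seq) of cells kept as a monolayer at 25 °C, with no treatment named in the labels. Mod(mdg4)2.2 was precipitated with 2 antibodies, raised in guinea pig and in rabbit, and both libraries are combined in 1 list. Su(Hw) was precipitated with 1 rabbit antibody. All 3 libraries, per the labels, share the first chromatin preparation and its input library. Each list is thus a single measurement of 1 cell line. Intervals below are 95% intervals of counting error, and tests compare lists of peaks, not independent cultures. Both count each peak as independent, although neighbouring peaks can meet the same peak of another list, so p-values may be too small. The number of reads per library was not given in the sources used here, so the depth behind a missing peak is unknown.

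Su(Hw) is a DNA-binding protein with an array of zinc fingers. Its gene is named suppressor of Hairy-wing because loss of its function suppresses mutant phenotypes caused by insertion of the gypsy retrotransposon. Mod(mdg4)2.2 is 1 of the many protein isoforms made from the mod(mdg4) locus. It carries a BTB domain, through which such proteins bind one another, and a carboxy-terminal part that binds Su(Hw). At gypsy, both act with CP190, another BTB protein, to form an insulator, an element that keeps an enhancer from acting on a promoter when it lies between them.

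Most peaks of each list had a partner in the other. Of the 2678 Mod(mdg4)2.2 peaks, 1829 (68.3%, interval 66.5 to 70.0) overlapped a Su(Hw) peak. Of the 2369 Su(Hw) peaks, 1597 (67.4%, 65.5 to 69.3) held Mod(mdg4)2.2. This left 849 Mod(mdg4)2.2 peaks and 772 Su(Hw) peaks unshared. All Mod(mdg4)2.2 peaks are 304 bp wide and covered 0.676% of the 5 large chromosome arms. Su(Hw) peaks are 300 to 7017 bp wide, with a median of 2106 bp, and covered 4.32% of these arms. Most sharing was complete on the Mod(mdg4)2.2 side, since 1793 of the 1829 shared peaks (98.0%, 97.3 to 98.6) lay wholly inside the Su(Hw) peak and 36 crossed its edge. The smallest overlaps that counted as shared were 16, 18 and 32 bp. Just outside the rule, the closest unshared Mod(mdg4)2.2 peaks were 14, 23 and 39 bp from a Su(Hw) edge.

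A Su(Hw) peak usually held a single Mod(mdg4)2.2 peak. Of all Su(Hw) peaks, 1390 (58.7%, 56.7 to 60.6) held 1, 186 (7.85%, 6.84 to 9.004) held 2, 17 held 3 and 4 held 4. Among shared Su(Hw) peaks, 207 (13.0%, 11.4 to 14.7) had 2 or more, and these contained 439 of the 1829 shared Mod(mdg4)2.2 peaks. No Mod(mdg4)2.2 peak met more than 1 Su(Hw) peak. With all peaks resized to 300 bp around their midpoints, the share with 2 or more was 2.24%. In the Mod(mdg4)2.2 list itself, 29 pairs of peaks overlapped each other, and in 24 of these pairs both peaks lay in the same Su(Hw) peak. No pair of Su(Hw) peaks overlapped.

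Mod(mdg4)2.2 lay close to the centre of the Su(Hw) peak. The absolute offset between both midpoints had a median of 69.5 bp (61.0 to 76.5) over the 1829 shared Mod(mdg4)2.2 peaks, with quartiles of 23.5 and 252 bp. It was at most 50 bp in 795 of them (43.5%) and over 500 bp in 275 (15.0%). In 1362 (74.5%) the offset was under 20% of the half-width of the Su(Hw) peak, and in 26 (1.42%) it was 80% of the half-width or more. The midpoint of 14 shared Mod(mdg4)2.2 peaks lay at or beyond the edge of the Su(Hw) peak. Along the chromosome sequence, 919 midpoints lay to the left, 905 to the right and 5 on the same base, and a signed median of −1 bp (−4.5 to 3). The median offset moved with the widths used. It was 41 bp with all peaks resized to 300 bp, which keeps only nearby pairs, and 112 bp among the 50% widest Su(Hw) peaks.

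**Figure D1:**
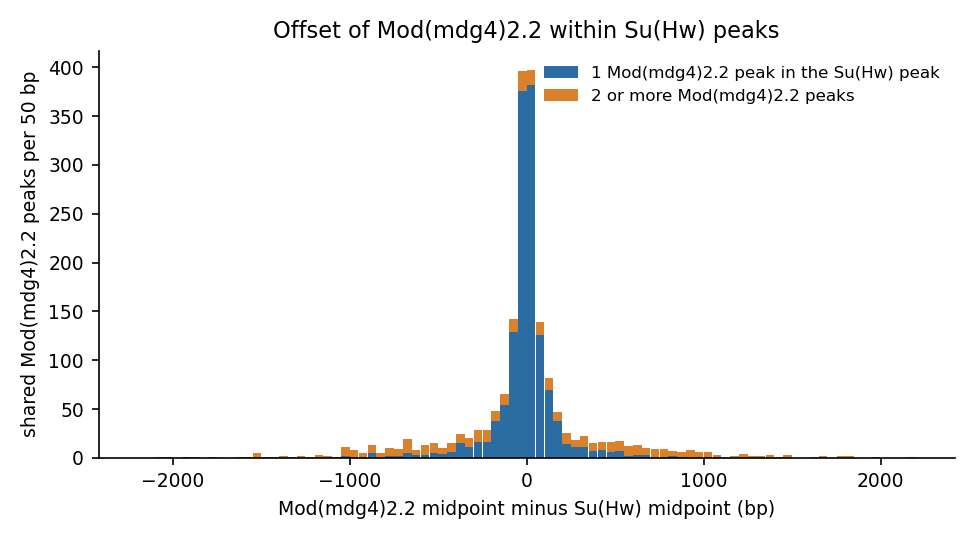
Number of shared Mod(mdg4)2.2 peaks per 50 bp of signed offset, the Mod(mdg4)2.2 midpoint minus the Su(Hw) midpoint in bp. Blue bars are peaks alone in their Su(Hw) peak and orange bars, stacked on them, those with another in the same Su(Hw) peak. The bins on both sides of 0 hold 396 and 397 peaks, and the orange bars spread widely on both sides.

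Offsets were small in most Su(Hw) peaks with 1 Mod(mdg4)2.2 peak. In these 1390 peaks the median absolute offset was 42.5 bp (39.5 to 46.5), and 1017 (73.2%) were within 100 bp. Where a Su(Hw) peak held 2 or more, the 439 Mod(mdg4)2.2 peaks had a median offset of 503 bp (436 to 555), and 61 (13.9%) were within 100 bp. These Su(Hw) peaks were also wider, with a median of 2937 bp against 2137 bp for those with 1. In the widest decile of Su(Hw) peaks, a single Mod(mdg4)2.2 peak had a median offset of 509 bp (441 to 603), with 10.7% within 100 bp. In the next decile of width that median was 176.5 bp (154 to 197). Offsets with 2 or more were not split by width, so number and width were not told apart. Several separate midpoints also cannot all lie at the centre of 1 Su(Hw) peak. Where a Su(Hw) peak held 2 or more, their midpoints lay on both sides of the Su(Hw) midpoint in 175 of the 207 Su(Hw) peaks (84.5%, 79.0 to 88.8). Neighbouring Mod(mdg4)2.2 midpoints in such a peak were a median of 866 bp apart (755 to 987, 232 intervals), with a range of 199 to 3173 bp. The Mod(mdg4)2.2 peak of highest score was the one nearest the Su(Hw) midpoint in 136 of the 207 (65.7%, 59.0 to 71.8). Where there were exactly 2, this was so in 131 of 186 (70.4%, 63.5 to 76.5). The median offset was 321 bp (263 to 429) for the Mod(mdg4)2.2 peak of highest score and 602 bp (554 to 674) for the others. The score is the authors' own value for each peak, on a scale that is not given in the sources used here. In these Su(Hw) peaks the highest score was a median of 1.771 times the second (1.53 to 2.04).

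Of the 4 Su(Hw) peaks with 4 Mod(mdg4)2.2 peaks, 3 are shown to give the layout of such groups. At the Su(Hw) peak chr3R:793491-800357 (dm3), 6867 bp wide, the offsets were −1796, −1358, −189.5 and 2166 bp, with scores of 62.9, 198, 268 and 321. The highest score was here at the peak farthest from the centre. At chr2L:13486794-13492299 the offsets were −463, −262, −11 and 1807 bp, with scores of 169, 62.1, 77.3 and 84.4. At chr2L:2954823-2958306 they were −732, −521, 678 and 1356 bp, with scores of 96.7, 46.4, 228 and 49.5. At both sites on 2L, the first 2 Mod(mdg4)2.2 peaks were closer to each other than their width and so overlapped, as did the next pair at the wider site. All 3 Su(Hw) peaks also held CP190, and the one on 3R held Shep. CP190 was at 84.5% of all Su(Hw) peaks with 2 or more Mod(mdg4)2.2 peaks, and Shep at 7.34% of all Su(Hw) peaks. The largest offsets were in such wide peaks as well. Next to the 2166 bp above, the largest of those on 2L, 3L, 3R and X, −2030 and 1996 bp, were at both ends of the same Su(Hw) peak, chr3L:7803877-7810037, which held 3 Mod(mdg4)2.2 peaks.

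Sharing was more frequent at Mod(mdg4)2.2 peaks of high score. Shared Mod(mdg4)2.2 peaks had a median score of 144 (134 to 150, quartiles 80.9 and 233) and unshared ones 63.1 (60.9 to 65.2, quartiles 52.3 and 85.8), a ratio of 2.28. In the decile of highest score, 263 of 268 Mod(mdg4)2.2 peaks (98.1%, 95.7 to 99.2) met Su(Hw). In decile 3, 94.0% (90.5 to 96.3) did so. The share was 59.3% in decile 6 and 34.7% (29.3 to 40.6) in the lowest. The lowest 2 deciles, 35.4% and 34.7%, did not differ beyond their intervals. The unshared peaks were thus mostly of low score but not only so, and the highest unshared score in the list was 382 against 544 for shared peaks.

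**Figure D2:**
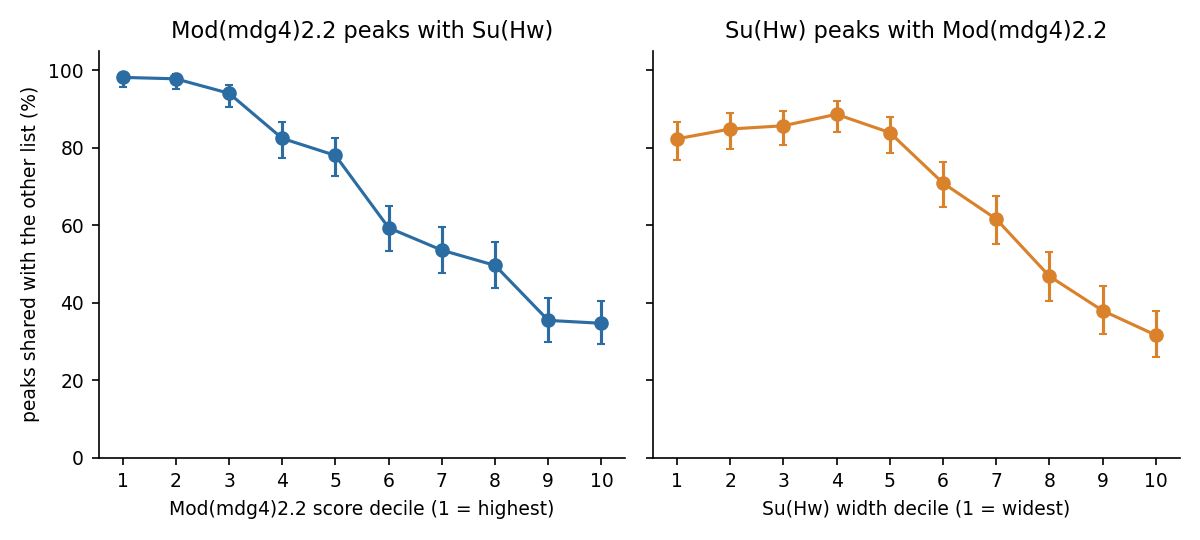
Share of peaks that met the other list, with 95% Wilson intervals, by decile of Mod(mdg4)2.2 score on the left and of Su(Hw) width on the right, 1 being the highest score or the widest. The share falls from 98.1% to 34.7% over the score deciles, and over the width deciles it is above 80% in deciles 1 to 5 and then falls to 31.6%.

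The peaks of highest score on 2L, 3L, 3R and X illustrate both classes. The Mod(mdg4)2.2 peak chr3R:3807143-3807446 had the score of 544 and an offset of 52.5 bp in a Su(Hw) peak of 2285 bp. On X, chrX:18922669-18922972 had a score of 537 and an offset of −93 bp, and chrX:20631343-20631646 a score of 490 and an offset of 39.5 bp. Each of the 3 was alone in its Su(Hw) peak and also overlapped CP190. In the highest score decile, 89.7% of shared Mod(mdg4)2.2 peaks overlapped CP190. Among unshared Mod(mdg4)2.2 peaks, chr3R:14870334-14870637 had a score of 371 and lay 49403 bp from the nearest Su(Hw) peak, with neither CP190 nor Shep. The next, chrX:18529312-18529615 with a score of 369, was 68197 bp from Su(Hw) and overlapped CP190 and Shep. The last of the 3, chrX:20396019-20396322 with a score of 353, was 14126 bp away and overlapped CP190. These unshared sites were far from Su(Hw) and not just beyond the edge of a peak.

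Su(Hw) peaks with Mod(mdg4)2.2 were wider than those without it. The median width was 2163 bp (2150 to 2175) for shared and 2001 bp (1993 to 2009) for unshared Su(Hw) peaks, a difference of 162 bp. A wider peak has more room to meet a peak of the other list, and the part of this in the difference was not tested. The difference lay in the narrower peaks. Of the 1165 Su(Hw) peaks of up to 2100 bp, 576 (49.4%, 46.6 to 52.3) held Mod(mdg4)2.2, and of the 1204 wider ones 1021 (84.8%, 82.7 to 86.7). From the widest decile to decile 5 the share was between 82.3% and 88.6%, and it then fell in each decile to 31.6% (26.1 to 37.8) in the narrowest. Among the 50% widest Su(Hw) peaks no difference was resolved, with a value of −35.5 bp (−139 to 57, from the intervals of both medians). The smallest width, 300 bp, occurred in 51 Su(Hw) peaks, of which 13 (25.5%, 15.5 to 38.9) held Mod(mdg4)2.2.

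Wider Su(Hw) peaks held more Mod(mdg4)2.2 peaks, while the Mod(mdg4)2.2 score was lowest in the narrowest ones. The median width was 2137 bp (2128 to 2147) with 1 Mod(mdg4)2.2 peak, 2848 bp (2699 to 3077) with 2 and 3969 bp (2973 to 4656) with 3. In the widest decile, 111 of the 195 shared Su(Hw) peaks (56.9%, 49.9 to 63.7) held 2 or more, against 3.03% in decile 5. Over the 1390 Su(Hw) peaks with a single Mod(mdg4)2.2 peak, width and score had a Spearman rho of 0.398. By decile of width, the median of the highest Mod(mdg4)2.2 score per shared Su(Hw) peak was 188 in the widest, 232 in decile 4 and 73.8 in the narrowest, so that it did not increase with width among the widest peaks. This describes peaks of lists that share a chromatin preparation and an input. The median offset of a single Mod(mdg4)2.2 peak did not change steadily with width. It was 509 bp in the widest decile, 18 bp (13.5 to 22.5) in decile 6, which spans widths of 2058 to 2106 bp, and 166 bp (133 to 211) in the narrowest. The closest agreement of both midpoints was therefore in Su(Hw) peaks of about 2000 to 2100 bp.

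**Figure D3:**
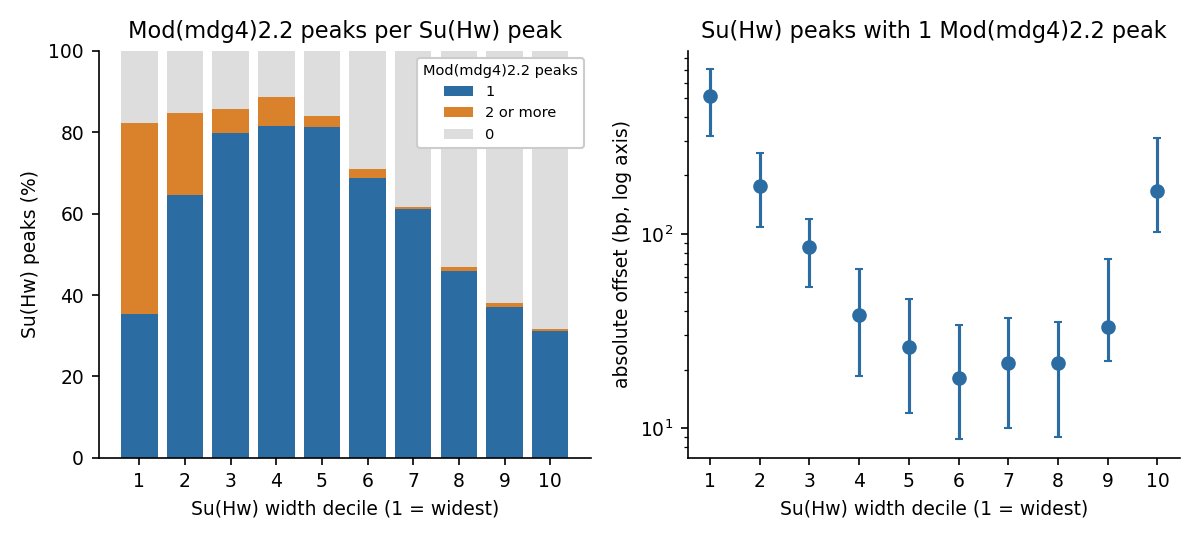
By decile of Su(Hw) width, 1 being the widest. On the left, the share of Su(Hw) peaks with 1, with 2 or more and with 0 Mod(mdg4)2.2 peaks. On the right, the absolute offset in bp on a log axis for Su(Hw) peaks with 1 Mod(mdg4)2.2 peak, as median with quartiles. Su(Hw) peaks with 2 or more are mainly in the first 2 deciles, and the offset is lowest, 18 bp, in decile 6.

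Some wide Su(Hw) peaks had no Mod(mdg4)2.2. The widest of them, chr3L:8929040-8935723, was 6684 bp wide and 121627 bp from the nearest Mod(mdg4)2.2 peak. The next were chr2L:14885455-14889997, 4543 bp wide and 33425 bp away, and chr2L:19809832-19813654, 3823 bp wide and 3547 bp away. None of the 3 overlapped CP190 or Shep, which were at only 14.8% and 6.99% of all unshared Su(Hw) peaks.

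Unshared peaks were seldom near misses. The distance from an unshared Mod(mdg4)2.2 peak to the nearest Su(Hw) edge had a median of 13551 bp (12035 to 15203), and 63 of 849 (7.42%) were within 1000 bp. For unshared Su(Hw) peaks, the nearest Mod(mdg4)2.2 edge was at a median of 20283 bp (18093 to 22360), and 21 of 770 (2.73%) were within 1000 bp. The other 2 unshared Su(Hw) peaks lay on the mitochondrial genome, where Mod(mdg4)2.2 had no peak. Over 100000 bp from the other list were 32 Mod(mdg4)2.2 peaks (3.77%) and 63 Su(Hw) peaks (8.18%).

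Shared sites were somewhat more closely spaced within their own list. The nearest other Su(Hw) midpoint was at a median of 13842 bp (13057 to 15037) for shared and 17797 bp (16348 to 19904) for unshared Su(Hw) peaks. For Mod(mdg4)2.2 these medians were 7954 bp (7100 to 8826) and 11229 bp (9906 to 12912). The Mod(mdg4)2.2 values include neighbours within 1 Su(Hw) peak, which are always both shared. Neighbouring Su(Hw) peaks also tended to be alike. The next Su(Hw) peak along the chromosome was shared in 1148 of 1590 cases (72.2%, 70.0 to 74.4) after a shared one and in 442 of 768 (57.6%, 54.0 to 61.0) after an unshared one. With midpoints within 5000 bp of each other, these shares were 82.6% (75.8 to 87.7) and 54.5% (41.5 to 67.0). Over 50000 bp apart they were 65.3% (61.1 to 69.2) and 57.3% (51.6 to 62.9). Once neighbours in the same Su(Hw) peak were set aside, the next Mod(mdg4)2.2 peak was shared in 66.7% of cases (64.3 to 68.9) after a shared one and 62.8% (59.4 to 66.0) after an unshared one. Within 5000 bp, the same shares were 65.6% (58.7 to 71.9) and 44.1% (36.4 to 52.0). Farther apart, the Mod(mdg4)2.2 shares were close, 67.2% and 65.9% at 5000 to 50000 bp, and 66.1% (61.7 to 70.2) and 68.4% (62.6 to 73.7) over 50000 bp. The longest run without interruption was 21 shared Su(Hw) peaks and 9 unshared ones.

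Both classes were spread over all chromosome arms. On 2L, 2R, 3L, 3R and X, the shared part of the Mod(mdg4)2.2 list lay between 66.3% (2R, 61.9 to 70.4) and 69.6% (3R, 66.1 to 72.9), with overlapping intervals. The shared part of the Su(Hw) list varied more, from 63.9% on 2L (59.1 to 68.4) to 74.8% on 3L (70.5 to 78.7). Unshared Su(Hw) peaks had a density of 4.39 per Mb on 3L and 7.60 per Mb on 3R, while that of shared ones was 13.0 and 15.0 per Mb. The length of an arm was set to the end of its last peak. Of the shared Su(Hw) peaks, 19.3% were on X, against 21.4% of the unshared ones, a difference of −2.09 percentage points (−5.64 to 1.32) that did not pass the threshold (adjusted p = 0.321, Fisher's exact test). For Mod(mdg4)2.2 the X held 19.5% and 19.2% (difference 0.32 points, −2.97 to 3.45, adjusted p = 0.875, Fisher's exact test). Chromosome 4 held 8 Su(Hw) peaks, 7 of them shared, and 12 Mod(mdg4)2.2 peaks, 8 of them shared.

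Outside the arms, Su(Hw) without Mod(mdg4)2.2 was the more frequent class. Together, the Het scaffolds of heterochromatin, unplaced sequence (U) and mitochondrial DNA (M) held 37 Su(Hw) peaks, of which 11 (29.7%, 17.5 to 45.8) were shared. They thus made up 0.689% of the shared and 3.37% of the unshared Su(Hw) peaks, for which Fisher's exact test gave an adjusted p of 5.24e-06 (odds ratio 0.199). Of the 13 Su(Hw) peaks on U, 2 were shared. Mod(mdg4)2.2 had 22 peaks outside the arms, 11 of them shared, and the difference between its classes did not pass the threshold (0.601% against 1.30%, adjusted p = 0.104, Fisher's exact test). These sequences are rich in repeats, and how reads that map to several places were treated is not given in the sources used here.

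**Figure D4:**
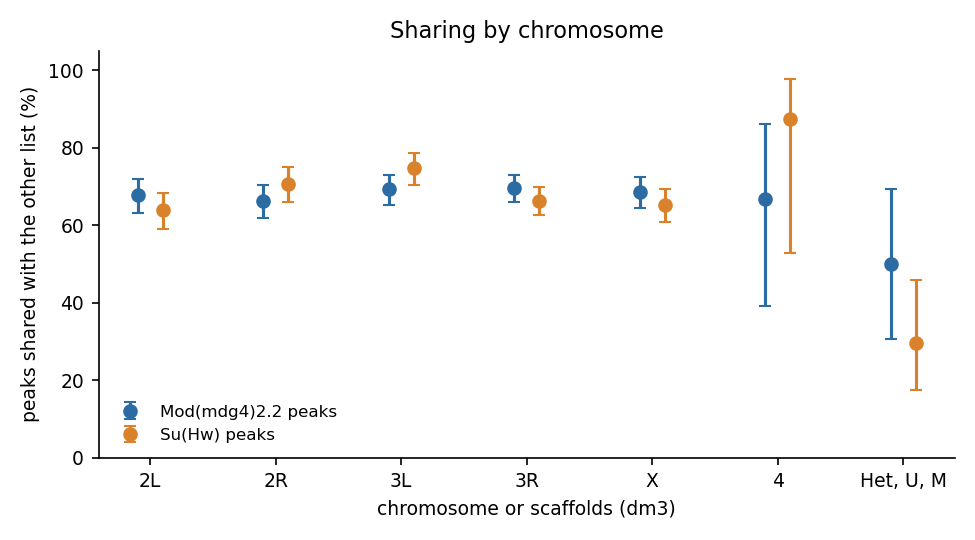
Share of Mod(mdg4)2.2 peaks with Su(Hw) (blue) and of Su(Hw) peaks with Mod(mdg4)2.2 (orange) on each chromosome of dm3 and on the Het, U and M sequences together, with 95% Wilson intervals. The Mod(mdg4)2.2 shares on the 5 large arms lie between 66.3% and 69.6%, and the Su(Hw) share outside the arms is 29.7%.

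Along the arms, the shared part of the Su(Hw) list was highest next to the telomere. In 5 equal bins from telomere to centromere, summed over the 5 large arms, it was 75.6% (71.3 to 79.4), 67.2%, 65.8%, 64.9% and 67.2% (62.3 to 71.7). The intervals of the bins at both ends overlap slightly, and the difference between bins was not tested. The bin next to the telomere was not split by arm, so its value is known only as a sum. The bin next to the centromere differed between arms, from 51.8% (41.2 to 62.2, 83 peaks) on 2L to 82.5% (68.0 to 91.2, 40 peaks) on 2R. For Mod(mdg4)2.2 the 5 bins lay between 66.5% and 70.3%, within one another's intervals.

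CP190, which was not used to define the classes, was more frequent at Su(Hw) peaks with Mod(mdg4)2.2. CP190 is a component of several types of Drosophila insulator. It overlapped 49.2% of all Su(Hw) peaks and was at 1052 of 1597 shared ones (65.9%, 63.5 to 68.2) and at 114 of 772 unshared ones (14.8%, 12.4 to 17.4). The difference was 51.1 percentage points (47.5 to 54.4), and Fisher's exact test gave an adjusted p of 2.03e-128, with an odds ratio of 11.1. CP190 was more frequent at the shared peaks in 10 of 10 deciles of Su(Hw) width, and the pooled odds ratio was 9.73 (7.63 to 12.4). The Mantel-Haenszel test over all 2369 peaks gave an adjusted p of 3.6e-92. The Su(Hw) list holds positions only, so its peaks could be matched by width but not by a score. The CP190 library came from the second chromatin preparation with its own input, so preparation and factor cannot be told apart for it. CP190 was also more frequent with several Mod(mdg4)2.2 peaks. It was at 175 of 207 Su(Hw) peaks with 2 or more (84.5%, 79.0 to 88.8) and at 877 of 1390 with 1 (63.1%, 60.5 to 65.6). By Fisher's exact test this gave an adjusted p of 4.32e-10, with an odds ratio of 3.20. Within deciles of width the odds ratio was 2.42 (1.57 to 3.73), with an adjusted p of 7.76e-05 in the Mantel-Haenszel test over the 1597 shared peaks. Most of these peaks are wide, and deciles 5 to 10 hold between 1 and 6 Su(Hw) peaks with 2 or more each. The highest Mod(mdg4)2.2 score was also higher with 2 or more, a median of 207 (183 to 228) against 146 (137 to 153) with 1. Score was not matched in this comparison, so number and score were not told apart. With all peaks resized to 300 bp the odds ratio was 1.66 and did not pass the threshold (adjusted p = 0.342, Fisher's exact test).

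At the level of position, CP190 was nearer to Mod(mdg4)2.2 than to Su(Hw). In the 872 Su(Hw) peaks with exactly 1 Mod(mdg4)2.2 and 1 CP190 peak, the CP190 midpoint was a median of 26 bp (23.5 to 28) from the Mod(mdg4)2.2 midpoint. From the Su(Hw) midpoint it was 63.5 bp (57 to 71.5) away. The Mod(mdg4)2.2 midpoint was the nearer one at 603 of these sites (69.2%, 66.0 to 72.1). The Mod(mdg4)2.2 and Su(Hw) midpoints were 45.5 bp (41 to 52) apart there. Peaks of the Su(Hw) and CP190 lists vary in width, whereas those of the Mod(mdg4)2.2 list, like those of the Shep list, have 1 width, so the lists may have been called in different ways. The part of this in the distances and in the shares of overlap was not tested.

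Seen from Mod(mdg4)2.2, the difference in CP190 went with the score. CP190 overlapped 60.1% of all Mod(mdg4)2.2 peaks, 1206 of 1829 shared ones (65.9%, 63.7 to 68.1) and 403 of 849 unshared ones (47.5%, 44.1 to 50.8). By Fisher's exact test the adjusted p was 5.4e-19, with an odds ratio of 2.14. When peaks were compared within the same score decile, an alternative added after the data had been seen, the call was lost. The pooled odds ratio was then 1.001 (0.824 to 1.22), with an adjusted p of 0.971 in the Mantel-Haenszel test over all 2678 peaks. Among the 50% of Mod(mdg4)2.2 peaks of highest score it was 1.02, which did not pass the threshold either. CP190 was the more frequent at shared peaks in 4 of the 10 deciles. Among shared Mod(mdg4)2.2 peaks its share fell from 89.7% in the highest decile to 39.8% in the lowest. Among unshared ones it was 76.6% (36 of 47 peaks) in decile 4 and 38.3% in the lowest. At like scores, the share of CP190 at Mod(mdg4)2.2 peaks with and without Su(Hw) thus could not be distinguished, within the interval given.

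Shep was more frequent at Mod(mdg4)2.2 peaks without Su(Hw). Shep, the product of alan shepard, binds RNA and modulates gypsy insulator activity; its list combines libraries of 2 antibodies from the first preparation. It overlapped 10.8% of all Mod(mdg4)2.2 peaks, 90 of the 1829 with Su(Hw) (4.92%, 4.02 to 6.01) and 199 of the 849 without it (23.4%, 20.7 to 26.4). By Fisher's exact test the adjusted p was 1.53e-42, with an odds ratio of 0.169. Shep was less frequent at the shared peaks in 10 of 10 score deciles, and the pooled odds ratio was 0.227 (0.167 to 0.308). The adjusted p was 4.11e-24 in the Mantel-Haenszel test over all 2678 peaks. The intervals of both classes overlap in the 3 highest deciles, which hold few unshared peaks, and in the lowest 2. With the 989 of 1443 Shep peaks that have a q of up to 0.05, the shares were 3.94% and 19.8% (odds ratio 0.166). At Su(Hw) peaks, Shep was at 7.34% of all, 7.51% of shared and 6.99% of unshared ones. That difference of 0.519 points (−1.83 to 2.64) did not pass the threshold (adjusted p = 0.759, Fisher's exact test). Its odds ratio was 1.08, and within deciles of Su(Hw) width the pooled one was 1.40 (0.945 to 2.07). The Mantel-Haenszel test over all 2369 Su(Hw) peaks gave an adjusted p of 0.144. Over the 14 alternatives the odds ratio lay between 0.834 and 1.47, and none passed the threshold. By number of Mod(mdg4)2.2 peaks, Shep was at 6.69% (5.49 to 8.13) of the Su(Hw) peaks with 1 and at 25 of the 186 with 2 (13.4%, 9.27 to 19.1), a difference that was not tested and in which the wider peaks also have more room.

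**Figure D5:**
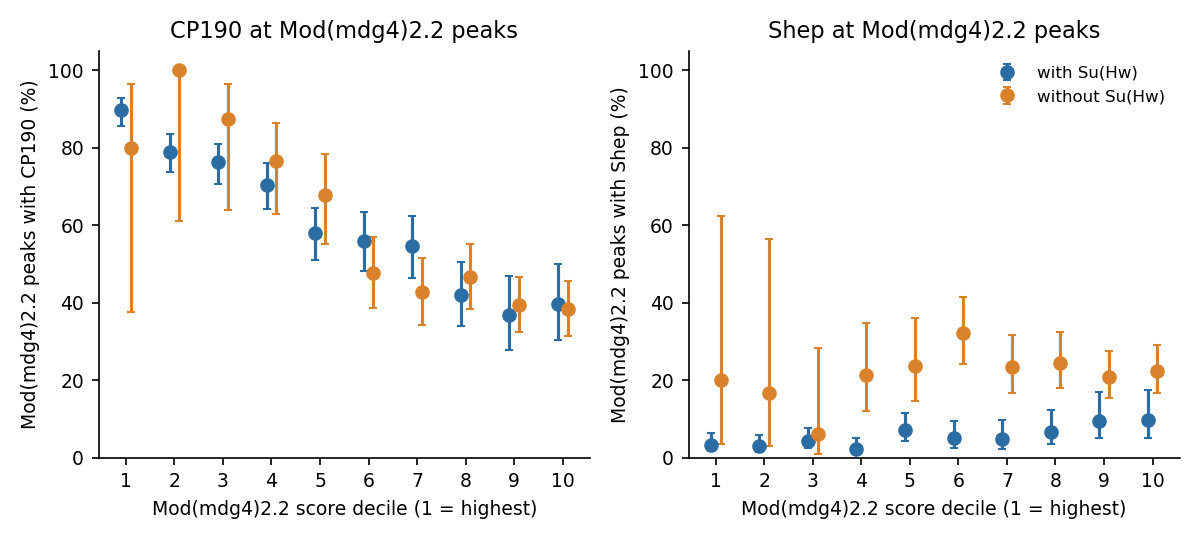
Share of Mod(mdg4)2.2 peaks that overlap CP190 (left) or Shep (right), by decile of Mod(mdg4)2.2 score, 1 being the highest, with 95% Wilson intervals. Blue points are peaks with Su(Hw) and orange points peaks without it, of which the first 3 deciles hold 5, 6 and 16. CP190 is less frequent in the lower score deciles in both classes, and Shep is higher without Su(Hw) in each decile.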

How the data were processed

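The authors deposited 1 peak list per factor. Trimmomatic 0.20 and cutadapt 1.1, the aligner Bowtie 0.12.8, and bedtools 2.17.0 with Picard 1.77 are the tools listed, and dm3 the build, per the submitters' processing notes. How peaks were called and how 2 libraries were combined is not given in the sources used here. For Mod(mdg4)2.2 the deposited list holds a peak score and, by the narrowPeak layout, the −log10 of a q-value (q of 0.000261 to 0.00624), and the deposited Shep list was used with its −log10 q. The Su(Hw) and CP190 lists hold positions only. Starts, counted from 0 in the files, are given from 1.

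The members and lists were chosen with earlier results of these data known. Sharing was an overlap of 1 bp or more. Shares have Wilson intervals, differences of shares Newcombe intervals and medians intervals from order statistics, which cover counting error only. Fisher's exact tests, two-sided, were adjusted by Benjamini-Hochberg over 9 comparisons with a threshold of 0.05. Pooled odds ratios within deciles are by Mantel-Haenszel, adjusted over 5. Functions were tested on simulated data. Regions named were, on 2L, 3L, 3R and X, the 3 first of each class by score, width, number of Mod(mdg4)2.2 peaks or offset. No genome or annotation of dm3 was used, so sequences and genes were not analysed here. Marker genes of the cell line were not analysed here, since the lists hold no expression values. The Rump list was left out. Tests used SciPy 1.17.1 and statsmodels 0.14.6, and tables and plots pandas 2.3.3, NumPy 2.4.6 and matplotlib 3.10.9, under Python 3.11.15. Alternatives were other overlap rules, resized peaks, the top 50% of each list, sets of arms and strata.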

Additional observations from a re-analysis of the deposited data

How the results depend on the processing

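Of 183 recomputed values, 163 stayed on the same side of the test's threshold or within the interval of the value reported. With a gap of up to 1000 bp allowed, 70.7% of Mod(mdg4)2.2 peaks were shared and 15.8% of shared Su(Hw) peaks held 2 or more. With all peaks resized to 300 bp, 58.4% of Su(Hw) and 52.8% of Mod(mdg4)2.2 peaks were shared. Of the shared Su(Hw) peaks, 2.24% then held 2 or more. The median offset was 41 bp and the odds ratio of CP190 by number of Mod(mdg4)2.2 peaks 1.66. Between the classes formed in this way, the medians of the original Su(Hw) widths, before resizing, differed by 112 bp. With the top 50% of Mod(mdg4)2.2 peaks by score, 47.1% of Su(Hw) and 90.1% of Mod(mdg4)2.2 peaks were shared, 7.16% of shared Su(Hw) peaks held 2 or more, the median offset was 56.5 bp, the score ratio 1.52 and the odds ratio of CP190 at Mod(mdg4)2.2 peaks 1.02. With the top 50% of Su(Hw) peaks by width, these were 85.0%, 45.9%, 19.4% and 112 bp, and the width difference was −35.5 bp (−139 to 57). Within deciles of score, the odds ratio of CP190 at Mod(mdg4)2.2 peaks was 1.001. By construction, taking the top 50% removes peaks and resizing removes width from the overlap rule. Otherwise the cause was not tested. Leaving out 1 large arm at a time, or keeping only the 5 large arms, changed no call among the tests that could be run. Strata, the filter on Shep q and the alternatives for peaks outside the arms were chosen after seeing the data. No paired analysis was possible because each factor has 1 list without values per library, and leaving out a library was not possible for the same reason.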

Other observations

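Seen from the 2742 CP190 peaks, 1062 (38.7%, 36.9 to 40.6) met both Mod(mdg4)2.2 and Su(Hw), 369 (13.5%, 12.2 to 14.8) met Mod(mdg4)2.2 without Su(Hw) and 121 (4.41%, 3.71 to 5.25) met Su(Hw) without Mod(mdg4)2.2. The remaining 1190 (43.4%, 41.5 to 45.3) met neither. Among Mod(mdg4)2.2 peaks with Su(Hw), those with CP190 had a median score of 173 (165 to 181, 1206 peaks) and those without it 91.7 (86.9 to 102, 623 peaks). Among Mod(mdg4)2.2 peaks without Su(Hw), the medians were 68.9 (64.7 to 73.8) and 59.0 (57.6 to 61.5).

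The −log10 q of Mod(mdg4)2.2 peaks reached the same highest value, 3.58, in 1918 peaks, of which 1531 (79.8%, 78.0 to 81.6) met Su(Hw). Of the 760 peaks below that value, 298 (39.2%, 35.8 to 42.7) did so.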
